A study of Homo sapiens with 7 samples.

Results

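The genes described here encode the enzymes and regulators of fatty acid breakdown and of fatty acid synthesis in HEK-293 cells, an established line derived from human embryonic kidney. They were chosen by name as 33 rows of a gene-level count table of 19978 genes, 24 of them for breakdown and 9 for synthesis, and all 33 had enough counts to be among the 14863 genes tested. Earlier results of these data were known when the genes were chosen. Cells were grown for 48 h in medium of pH 7.4 with the DMSO vehicle (control, n = 2), in medium acidified to pH 6.6 with the same vehicle (acidosis, n = 3), or at pH 7.4 with 10 µM SRPIN340, an inhibitor of the kinases that phosphorylate SR splicing factors (n = 2). No treatment was shared by all groups beyond the culture medium and the solvent, and the labels give neither clones nor transgenes. Poly(A) RNA was sequenced, and the comparisons asked how far breakdown and synthesis transcripts moved apart under each treatment.

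Fatty acids are burned in mitochondria by beta-oxidation. A long chain is first activated to an acyl-CoA by an acyl-CoA synthetase, carried across the inner membrane on carnitine, and then shortened in repeated rounds of dehydrogenation, hydration, a further dehydrogenation and thiolytic cleavage. Synthesis runs in the cytosol along a separate route, from citrate through acetyl-CoA and malonyl-CoA to palmitate, which desaturases and elongases of the endoplasmic reticulum then modify. Malonyl-CoA, the product of the first committed step of synthesis, inhibits the entry of long chains into mitochondria.

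Libraries held between 13615816 and 24110460 estimated counts, and 2 of the acidosis libraries were the shallowest. The scaling factors of the TMM method, which corrects for a few abundant transcripts taking a larger share of a library, were 0.782 to 0.800 in acidosis and 1.17 to 1.21 in the other groups. With that scaling the median log2 fold change of all tested genes was -0.05 in acidosis, and with scaling by the total count alone it was -0.63, so that every fold change below depends on this choice. In bulk RNA, fewer cells with a transcript and less of it per cell cannot be told apart. Levels are given as CPM, counts scaled to a common TMM-adjusted library size. Of 9 markers of this line (kidney lineage, neurofilament, vimentin and keratin genes), 8 had a mean of at least 1 CPM and PAX8 was near 0. Their summed level was 1443 to 1494 CPM in control and 3519.7 to 3532 CPM in acidosis, where VIM rose and PAX2 fell. Of the 8 markers tested, 4 rose and 3 fell in acidosis by the test described below, so the sum is no common direction. The summed level of 10 markers of blood, endothelium, liver and fat was at most 3.8 CPM in any library, with CD3E at 0. The part of these shifts in the results below was not tested.

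In acidosis the breakdown genes moved mostly down, and the synthesis genes split evenly. Of the 24 breakdown genes, 17 fell and 3 rose at an adjusted p under 0.05, while 34.2% of all tested genes fell and 32.5% rose by the same rule. Since the genes were chosen with earlier results of these data known, these shares are a description and no independent test. At the stricter limit that also asks for a log2 fold change beyond 1 in size, 6 of the 24 fell and 1 rose, where 19.1% of all genes fell and 14.4% rose, so the count at the stricter limit stood close to that of genes in general. Of the 9 synthesis genes, 4 fell and 4 rose, and at the stricter limit none fell and FASN alone rose. The median log2 fold change was -0.63 over the breakdown genes, -0.26 over the synthesis genes and -0.05 over all tested genes. Adjusted p values here and below come from the quasi-likelihood test of edgeR with the Benjamini-Hochberg adjustment over all tested genes. The test weighs a difference between group means against a spread estimated from the biological repeats of all groups together.

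**Figure D1:**
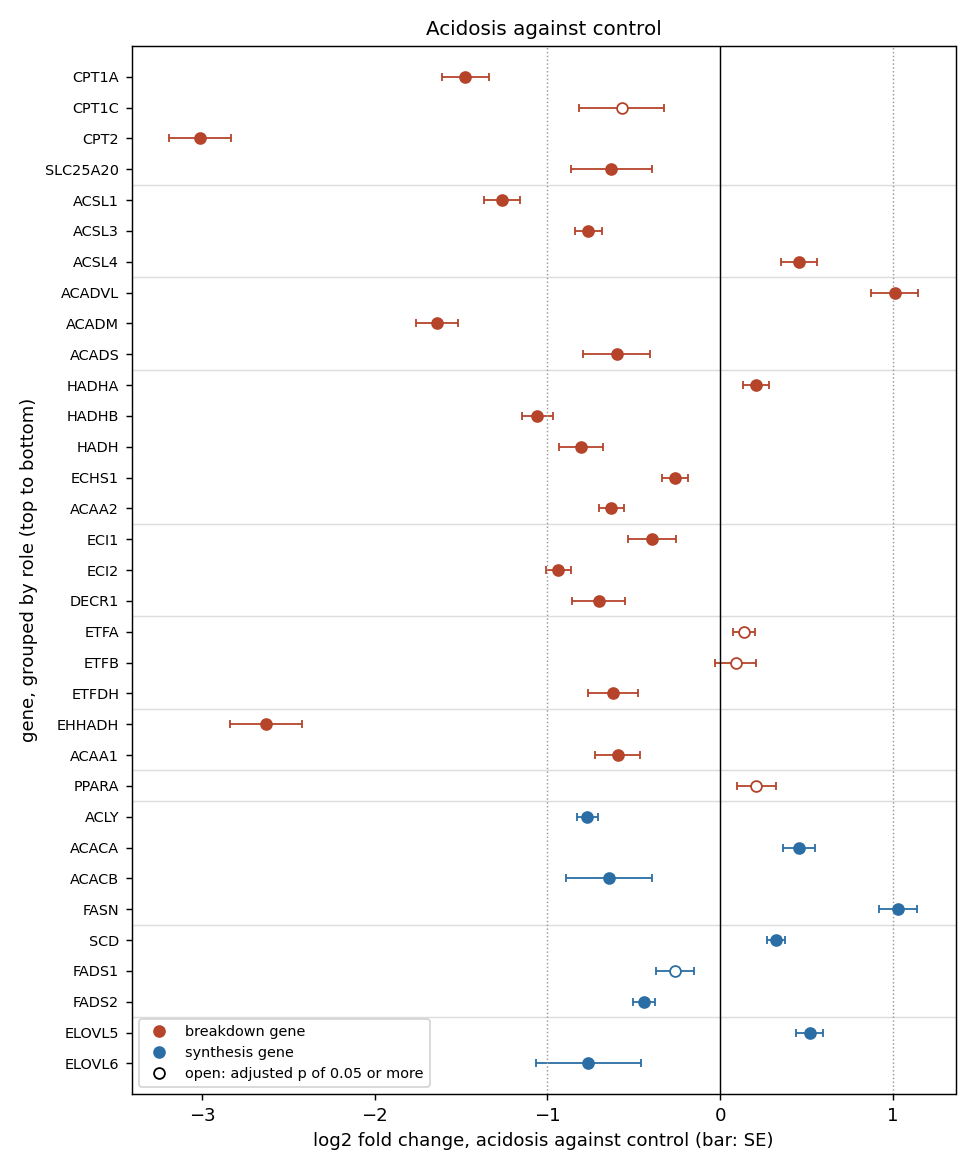
Log2 fold change in acidosis against control (x axis) for 24 breakdown genes and 9 synthesis genes (y axis), grouped by role with grey lines between roles. Points are fitted values, bars are 1 SE, open points did not pass the adjusted p limit of 0.05, and dotted lines mark a log2 fold change of 1 in either direction. CPT2 at -3.01 and EHHADH at -2.63 lay farthest to the left, and with scaling by the total count alone the positive values of ACSL4, HADHA, ETFA, ETFB, PPARA, ACACA, SCD and ELOVL5 turned negative.

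The carnitine shuttle carried the largest decrease. CPT2, the inner-membrane carnitine palmitoyltransferase that releases acyl-CoA into the matrix (chr1:53196792-53214197, GRCh38), stood at 40.9 and 37.4 CPM in the control libraries, 36.3 and 34.6 CPM with SRPIN340 and 5.11, 5.97 and 3.44 CPM in acidosis. All acidosis libraries lay far below every other library, and the level was 8.07-fold lower than in control (log2 fold change -3.01, SE 0.178, adjusted p = 4.22e-07). CPT1A, the outer-membrane enzyme of the rate-controlling step and the target of malonyl-CoA (chr11:68754620-68844410), stood at 33.9 and 36.8 CPM in control, 34.1 and 37.4 CPM with SRPIN340 and 12.7, 10.8 and 14.6 CPM in acidosis. It fell 2.78-fold without overlap between the groups (log2 fold change -1.47, SE 0.137, adjusted p = 8.36e-06). CPT1C, a family member of the endoplasmic reticulum with little known transferase activity, was scarce, at 4.61 and 4.95 CPM in control and 4.04, 2.48 and 3.01 CPM in acidosis. The acidosis libraries were the lowest, but the difference did not pass (log2 fold change -0.57, SE 0.246, adjusted p = 0.0639). SLC25A20, the carnitine-acylcarnitine carrier, fell by less (log2 fold change -0.63, SE 0.233, adjusted p = 0.0367), and without control replicate 2 its adjusted p was 0.204.

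Acyl-CoA synthetases, which activate fatty acids for breakdown as well as for lipid assembly, did not move together. ACSL1, an isoform of mitochondria and endoplasmic reticulum (chr4:184755595-184826818), stood at 49.9 and 43.9 CPM in control, 57.1 and 55.1 CPM with SRPIN340 and 20.0, 20.6 and 18.1 CPM in acidosis. The acidosis libraries were all below the rest, a 2.40-fold decrease (log2 fold change -1.26, SE 0.106, adjusted p = 4.28e-06). ACSL3, an isoform found on lipid droplets, fell 1.70-fold (log2 fold change -0.76, SE 0.0777, adjusted p = 1.61e-05). ACSL4, which prefers arachidonate and similar polyunsaturated chains, stood at 113 and 96.5 CPM in control and 132, 141 and 159.8 CPM in acidosis. Its acidosis libraries were the highest, and it rose (log2 fold change 0.46, SE 0.105, adjusted p = 0.00346), although with scaling by the total count alone the value was -0.12. Within each library, where scaling cancels, the ratio of ACSL1 to ACSL4 was 0.441 and 0.455 in control and 0.152, 0.146 and 0.114 in acidosis.

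The acyl-CoA dehydrogenases, which open each round and differ in the chain length they take, moved in opposite directions. ACADM, the medium-chain enzyme (chr1:75724431-75787575), stood at 74.5 and 70.3 CPM in control, 74.2 and 66.4 CPM with SRPIN340 and 23.99, 19.6 and 26.0 CPM in acidosis. It fell 3.12-fold with no overlap (log2 fold change -1.64, SE 0.121, adjusted p = 1.78e-06). ACADVL, the very-long-chain enzyme (chr17:7217125-7225266), stood at 121 and 151 CPM in control, 142 and 142 CPM with SRPIN340 and 324, 237 and 262 CPM in acidosis. All acidosis libraries were higher than the others, with acidosis replicate 1 the highest, and the gene rose 2.02-fold (log2 fold change 1.01, SE 0.135, adjusted p = 1.05e-04). That value was only just beyond the fold limit, and it was 0.86 without control replicate 1 and 0.88 without acidosis replicate 1. ACADS, the short-chain enzyme, stood at 7.60 and 10.4 CPM in control and 6.18, 5.33 and 6.28 CPM in acidosis, a small decrease (log2 fold change -0.60, SE 0.192, adjusted p = 0.0197) whose adjusted p was 0.187 without control replicate 2. The ratio of ACADM to ACADVL was 0.614 and 0.465 in control, 0.522 and 0.467 with SRPIN340, and 0.0741, 0.0825 and 0.0990 in acidosis.

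**Figure D2:**
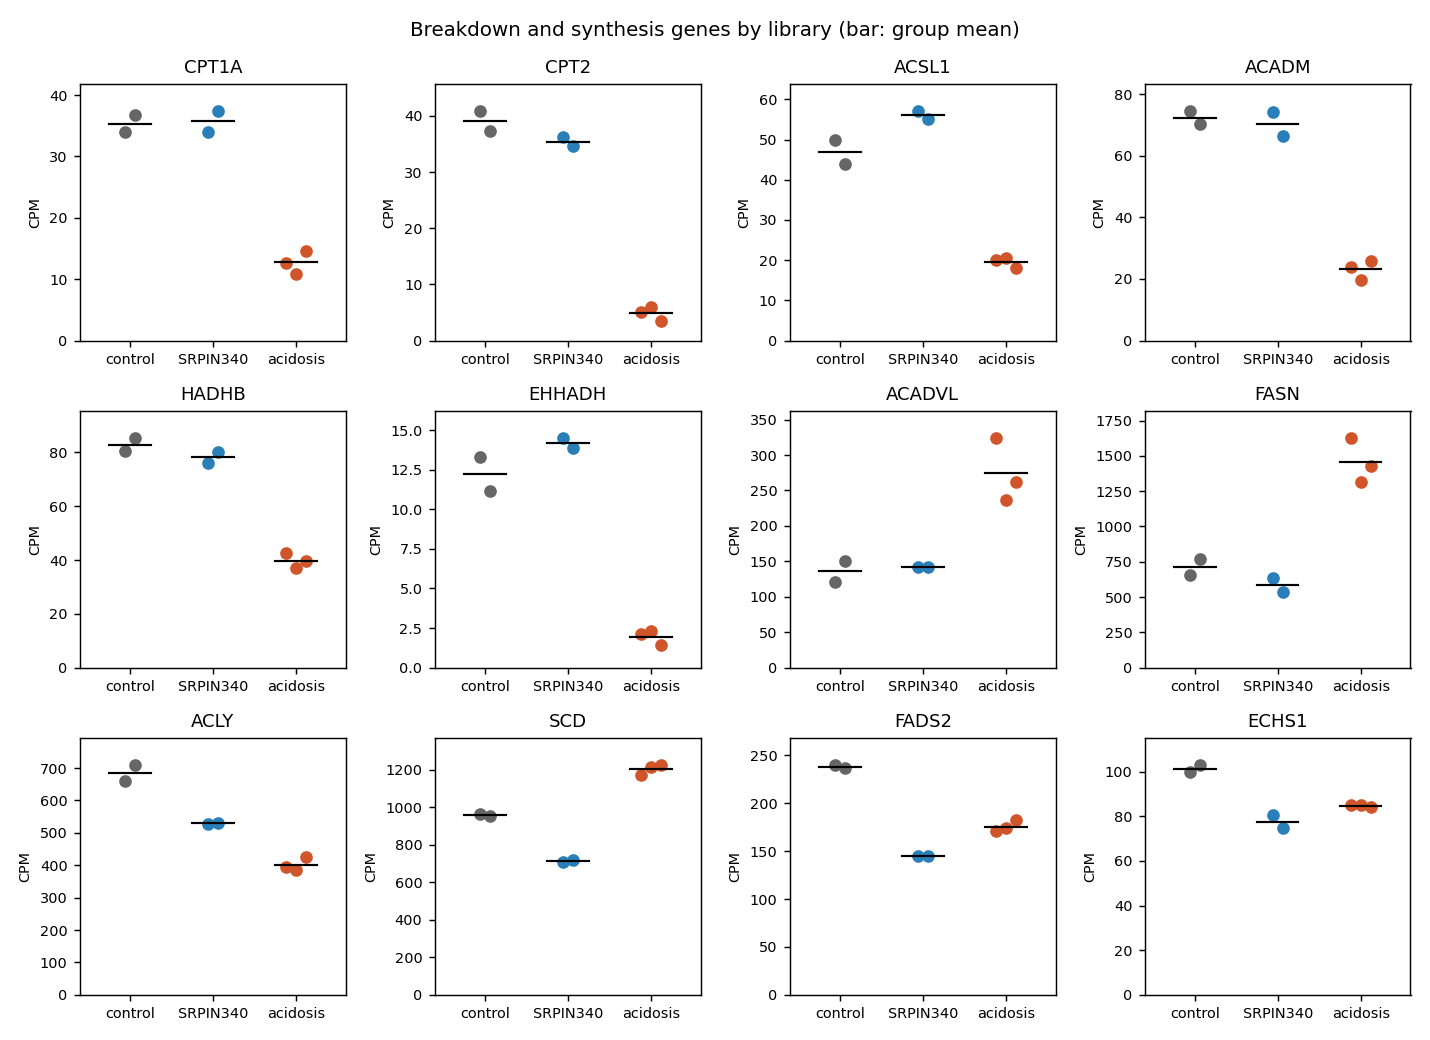
Level in CPM (y axis, linear from 0) of 12 breakdown and synthesis genes in each library of the control, SRPIN340 and acidosis groups (x axis). Points are libraries and black bars are group means, with the 3 acidosis libraries below both control libraries for CPT1A, CPT2, ACSL1, ACADM, HADHB, EHHADH, ACLY, FADS2 and ECHS1. For ACADVL, FASN and SCD they lie above them, and for SCD alone of these the direction turned with scaling by the total count.

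The mitochondrial trifunctional protein carries the later steps for long chains and is built from HADHA, with the hydratase and hydroxyacyl dehydrogenase activities, and HADHB, with the thiolase. Their genes lie head to head on chromosome 2, with start sites 307 bases apart, and the 300-base windows around them (250 bases before to 50 after the start, RefSeq, GRCh38.p14) share 194 bases at chr2:26244689-26244882. The HADHB window (chr2:26244689-26244988, plus strand) is shown because the stretch in capitals is shared and lies upstream of both starts:

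HADHB: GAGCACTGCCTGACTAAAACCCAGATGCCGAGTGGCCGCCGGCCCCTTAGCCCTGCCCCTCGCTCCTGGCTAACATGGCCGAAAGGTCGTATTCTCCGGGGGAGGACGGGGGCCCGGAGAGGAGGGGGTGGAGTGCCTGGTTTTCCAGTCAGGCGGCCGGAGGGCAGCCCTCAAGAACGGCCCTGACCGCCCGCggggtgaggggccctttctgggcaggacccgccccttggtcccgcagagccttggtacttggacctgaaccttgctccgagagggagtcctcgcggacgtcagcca

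HADHB stood at 80.6 and 85.2 CPM in control, 76.0 and 80.3 CPM with SRPIN340 and 42.6, 36.9 and 39.6 CPM in acidosis. It fell 2.08-fold, every acidosis library being below all others (log2 fold change -1.06, SE 0.0904, adjusted p = 4.79e-06). HADHA stood at 190.3 and 194 CPM in control, 194 and 186 CPM with SRPIN340 and 211, 213 and 242 CPM in acidosis. Its acidosis libraries were the highest by a small margin (log2 fold change 0.21, SE 0.0762, adjusted p = 0.0352), a rise that did not pass under 8 of 14 alternatives and that became -0.37 with scaling by the total count alone. The ratio of HADHB to HADHA, free of scaling, was 0.423 and 0.439 in control, 0.392 and 0.431 with SRPIN340, and 0.202, 0.173 and 0.164 in acidosis, the 3 acidosis ratios lying below the other 4.

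The remaining enzymes of the spiral fell by less. HADH, the hydroxyacyl dehydrogenase for shorter chains, had a log2 fold change of -0.80 (SE 0.127, adjusted p = 3.31e-04). ACAA2, the mitochondrial thiolase for medium chains, had -0.63 (SE 0.0734, adjusted p = 4.11e-05), and 13.2% of its transcript is shared with an unnamed gene model. ECHS1, the short-chain hydratase, had -0.26 (SE 0.0737, adjusted p = 0.0108). The auxiliary enzymes that prepare unsaturated chains for the spiral all fell. ECI2, an enoyl-CoA isomerase of mitochondria and peroxisomes, stood at 109 and 108 CPM in control and 56.7, 57.1 and 55.9 CPM in acidosis, with little spread in either group (log2 fold change -0.94, SE 0.0708, adjusted p = 2.12e-06). ECI1, the mitochondrial isomerase, stood at 32.9 and 41.9 CPM in control and 30.4, 26.8 and 28.1 CPM in acidosis. Its groups did not overlap (log2 fold change -0.39, SE 0.138, adjusted p = 0.0289), and its adjusted p was 0.246 without control replicate 2. DECR1, the dienoyl-CoA reductase, fell 1.63-fold (log2 fold change -0.70, SE 0.155, adjusted p = 0.00266).

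Electrons from the acyl-CoA dehydrogenases pass through the flavoprotein made of ETFA and ETFB to ETFDH, which hands them to ubiquinone. ETFDH stood at 36.8 and 32.8 CPM in control and 18.7, 23.96 and 25.6 CPM in acidosis, all acidosis libraries being lower (log2 fold change -0.62, SE 0.147, adjusted p = 0.00403). ETFB stood at 38.3 and 46.1 CPM in control and 46.1, 41.1 and 47.4 CPM in acidosis, with overlapping groups (log2 fold change 0.09, SE 0.118, adjusted p = 0.522). ETFA had a log2 fold change of 0.14 (SE 0.0628, adjusted p = 0.0783), and the values of ETFA and ETFB became -0.44 and -0.49 with scaling by the total count alone. ETFB shares 38.6% of its canonical transcript with an unnamed gene model on the same strand, and ETFDH 16% with PPID on the other, where reads may be split. The ratio of ETFDH to ETFA was 0.241 and 0.212 in control and 0.110, 0.145 and 0.148 in acidosis.

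Peroxisomes shorten very long and branched chains. EHHADH, a peroxisomal bifunctional hydratase and dehydrogenase (chr3:185190624-185281990), stood at 13.3 and 11.2 CPM in control, 14.5 and 13.9 CPM with SRPIN340 and 2.14, 2.30 and 1.46 CPM in acidosis. It was 6.18-fold lower in acidosis, without overlap (log2 fold change -2.63, SE 0.208, adjusted p = 2.90e-06). ACAA1, the peroxisomal thiolase, stood at 21.3 and 20.5 CPM in control and 14.6, 13.1 and 13.8 CPM in acidosis (log2 fold change -0.59, SE 0.128, adjusted p = 0.00235), and 24% of its canonical transcript overlaps exons of DLEC1 on the other strand. PPARA, the nuclear receptor that activates many breakdown genes, stood at 32.1 and 32.6 CPM in control and 33.2, 41.0 and 38.4 CPM in acidosis. Its acidosis libraries were slightly higher, the difference did not pass (log2 fold change 0.21, SE 0.115, adjusted p = 0.132), and with scaling by the total count alone it was -0.36.

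Among the synthesis genes, FASN, the multifunctional synthase that builds palmitate (chr17:82078338-82098294), stood at 657 and 767 CPM in control, 632 and 535 CPM with SRPIN340 and 1624, 1313 and 1425 CPM in acidosis. All acidosis libraries were above the others, and the gene rose 2.04-fold (log2 fold change 1.03, SE 0.110, adjusted p = 2.18e-05). Its log2 fold change was 0.92 without control replicate 1 and 0.94 without acidosis replicate 1, below the fold limit. ACLY, which makes cytosolic acetyl-CoA from citrate, stood at 661 and 708 CPM in control, 527 and 531 CPM with SRPIN340 and 395, 386 and 424 CPM in acidosis. It fell 1.70-fold in acidosis with no overlap (log2 fold change -0.77, SE 0.0620, adjusted p = 3.30e-06). The ratio of FASN to ACLY was 0.994 and 1.08 in control, 1.2 and 1.01 with SRPIN340, and 4.11, 3.40 and 3.36 in acidosis.

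ACACA, the cytosolic acetyl-CoA carboxylase that makes malonyl-CoA for synthesis, stood at 235 and 283 CPM in control and 364, 328 and 377 CPM in acidosis. It rose without overlap (log2 fold change 0.46, SE 0.0929, adjusted p = 0.00158), and its value was -0.12 with scaling by the total count alone. ACACB, the isoform at the mitochondrial surface whose malonyl-CoA restrains CPT1, was lower in acidosis (log2 fold change -0.64, SE 0.251, adjusted p = 0.0444) but no longer passed in 8 of 14 alternatives, with an adjusted p of 0.185 without control replicate 2.

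The desaturases place double bonds. SCD, the delta-9 desaturase that makes oleate, was the most abundant member per kilobase of transcript in control (183 CPM per kb). It stood at 966 and 957 CPM in control and 1174, 1216 and 1224 CPM in acidosis, a rise without overlap (log2 fold change 0.33, SE 0.0507, adjusted p = 3.00e-04) that became -0.25 with scaling by the total count alone. FADS2, the delta-6 desaturase of polyunsaturated chains, stood at 239 and 237 CPM in control and 171, 174 and 183 CPM in acidosis and fell (log2 fold change -0.44, SE 0.0624, adjusted p = 1.61e-04). FADS1, the delta-5 desaturase, stood at 237 and 264 CPM in control and 204, 182 and 243 CPM in acidosis, with overlapping groups (log2 fold change -0.26, SE 0.110, adjusted p = 0.0604). Exons of the neighbours FADS1 and FADS2 overlap on opposite strands over 3.3% and 4.8% of their transcripts. Of the elongases, ELOVL5, which extends polyunsaturated chains, stood at 221 and 203 CPM in control and 288, 333 and 291 CPM in acidosis. It rose (log2 fold change 0.52, SE 0.0796, adjusted p = 2.69e-04), and its value was -0.06 with scaling by the total count alone. ELOVL6, which extends palmitate to stearate, stood at 46.5 and 60.8 CPM in control and 22.3, 50.7 and 23.0 CPM in acidosis. Acidosis replicate 2 lay among the controls, so the groups overlapped, and the decrease passed narrowly (log2 fold change -0.76, SE 0.305, adjusted p = 0.0493) and was lost in 9 of 14 alternatives.

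The balance between the lists was followed in each library as the mean log2 CPM of the 24 breakdown genes minus that of the 9 synthesis genes. It is a description with no test, and a constant factor on a library cancels in it. It was -2.208 and -2.313 in control, -1.999 and -2.015 with SRPIN340, and -2.868, -2.881 and -2.857 in acidosis. The groups did not overlap, with acidosis lowest and SRPIN340 highest, and the spread within groups was an SD of 0.0385. The mean difference from control was -0.61 in acidosis and 0.25 with SRPIN340. In acidosis the breakdown mean went from 5.50 ± 0.0189 (SD, n = 2) to 4.82 ± 0.0156 (SD, n = 3), and the synthesis mean from 7.76 ± 0.0931 to 7.69 ± 0.0202, a difference within the control spread. With SRPIN340 the breakdown mean was 5.52 ± 0.0041 (SD, n = 2) and the synthesis mean 7.53 ± 0.0071. These list means keep the TMM scaling, unlike their difference.

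**Figure D3:**
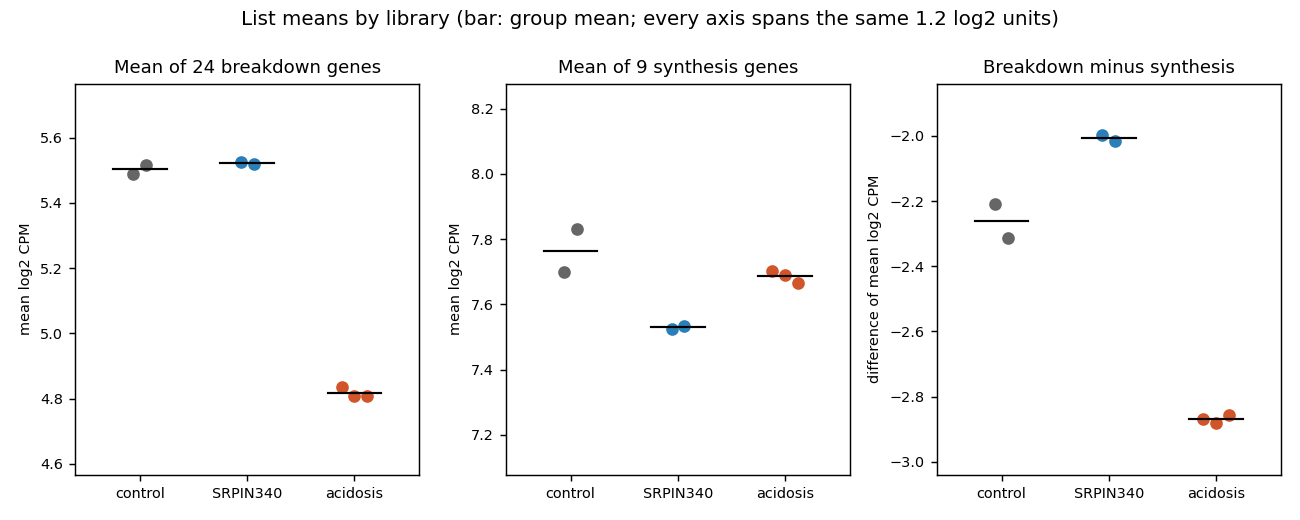
Mean log2 CPM over 24 breakdown genes (left), over 9 synthesis genes (middle) and their difference (right), on y axes of equal span, for each library of the 3 groups on the x axis. Points are libraries and bars are group means, and the difference lies at -2.881 to -2.857 in acidosis, -2.313 to -2.208 in control and -2.015 to -1.999 with SRPIN340.

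As summed levels, which the abundant genes dominate, the synthesis genes held 1.95 and 2.08 times the CPM of the breakdown genes in control, 1.67 and 1.65 times with SRPIN340, and 2.86, 2.82 and 2.82 times in acidosis. The synthesis sum was 3276 and 3494 CPM in control and 4253, 3988 and 4197 CPM in acidosis, and the breakdown sum 1682 and 1683 CPM in control and 1488, 1414 and 1486 CPM in acidosis. Per kilobase, ECHS1 and ECI2 were the most abundant breakdown genes in control (79.3 and 79.1 CPM per kb), and ACADVL was in acidosis (126 CPM per kb). CPT2 went from 14.5 to 1.79 CPM per kb and fell from above CPT1A (6.75 CPM per kb) to below it (2.43 CPM per kb). The ratio of CPT2 to CPT1A in CPM was 1.2 and 1.01 in control, 1.06 and 0.925 with SRPIN340, and 0.402, 0.551 and 0.235 in acidosis.

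**Figure D4:**
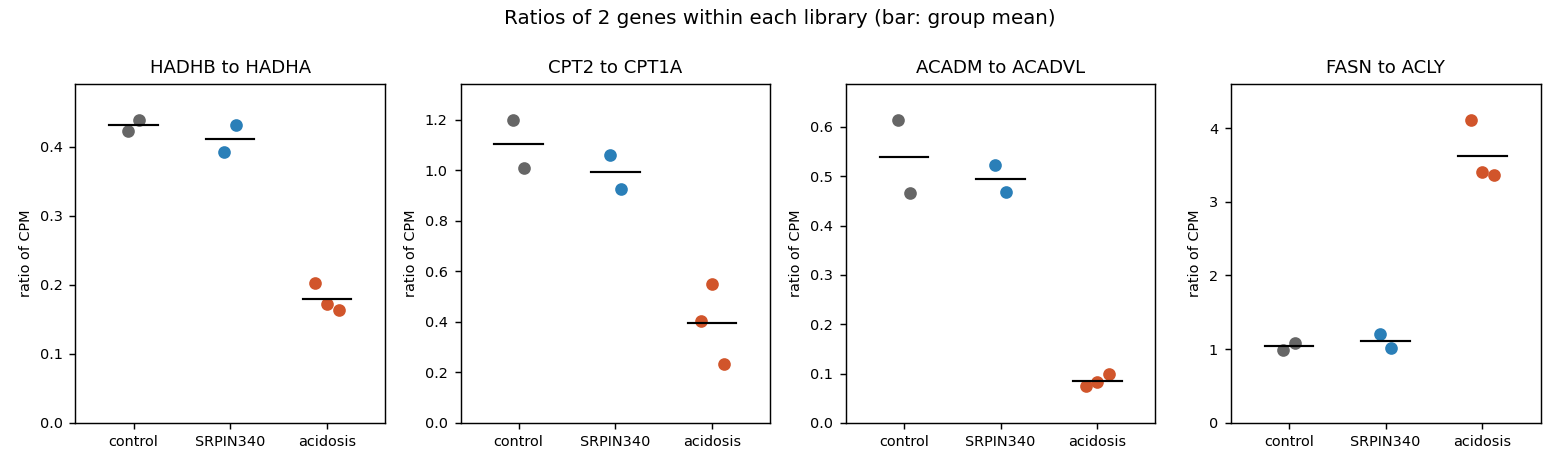
Ratio of the CPM of 2 genes within each library (y axis, linear from 0) for HADHB to HADHA, CPT2 to CPT1A, ACADM to ACADVL and FASN to ACLY, by group on the x axis. Points are libraries and bars are group means. The acidosis libraries lie apart from the other 4 in each panel, at 0.164 to 0.202 against 0.392 to 0.439 for HADHB to HADHA. The ratios rest on the same counts as the fold changes above and are no separate evidence.

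SRPIN340 changed few of these genes. None of the 33 passed with a log2 fold change beyond 1, where 0.323% of all tested genes did, and at the adjusted p limit alone 4 fell and none rose, where 1.53% of all genes fell and 0.767% rose. Those shares rest on 228 and 114 genes, which became 10 and 4 without SRPIN340 replicate 1 and 319 and 207 without acidosis replicate 2. Of the 9 synthesis genes, FADS2, SCD and ACLY fell. The fourth gene was the breakdown enzyme ECHS1. At an unadjusted p under 0.05, 6 of the 33 were lower and 2 higher, and DESeq2 passed 1 as higher, PPARA.

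FADS2 stood at 239 and 237 CPM in control and 145 and 145 CPM with SRPIN340, a 1.64-fold decrease (log2 fold change -0.72, SE 0.0688, adjusted p = 0.00225) that no longer passed without SRPIN340 replicate 1 (adjusted p = 0.0597). SCD stood at 966 and 957 CPM in control and 707 and 718 CPM with SRPIN340 (log2 fold change -0.43, SE 0.0552, adjusted p = 0.00762), and its adjusted p rose to at most 0.103 when a SRPIN340 library was left out. ACLY stood at 661 and 708 CPM in control and 527 and 531 CPM with SRPIN340 (log2 fold change -0.37, SE 0.0684, adjusted p = 0.0323). ECHS1 stood at 99.97 and 103 CPM in control and 80.4 and 74.7 CPM with SRPIN340 (log2 fold change -0.39, SE 0.0803, adjusted p = 0.0439). In each of these the 2 SRPIN340 libraries lay below both controls, as they did in 14 of the 33 members, while in 6 members they lay above both. Such separation of 2 libraries from 2 was thus common and adds little, and its share over all tested genes was not counted. The adjusted p of ACLY and ECHS1 rose above 0.05 in 6 and 8 of 14 alternatives, to at most 0.267 and 0.357.

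Of the other synthesis genes, FASN (-0.29), FADS1 (-0.29) and ACACB (-0.33) had negative log2 fold changes and ELOVL6 (0.18), ELOVL5 (0.06) and ACACA (0.04) positive ones, none of which passed. PPARA stood at 32.1 and 32.6 CPM in control and 44.9 and 49.7 CPM with SRPIN340, higher in both SRPIN340 libraries, and missed the limit narrowly (log2 fold change 0.55, SE 0.123, adjusted p = 0.0545), passing in 7 of 14 alternatives. Of the breakdown genes that fell most in acidosis, none passed with SRPIN340, at a log2 fold change of -0.14 (SE 0.170) for CPT2, 0.01 (SE 0.142) for CPT1A, -0.04 (SE 0.127) for ACADM and 0.21 (SE 0.194) for EHHADH. The remaining breakdown genes lay between -0.21 (ACAA1) and 0.56 (CPT1C).

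**Figure D5:**
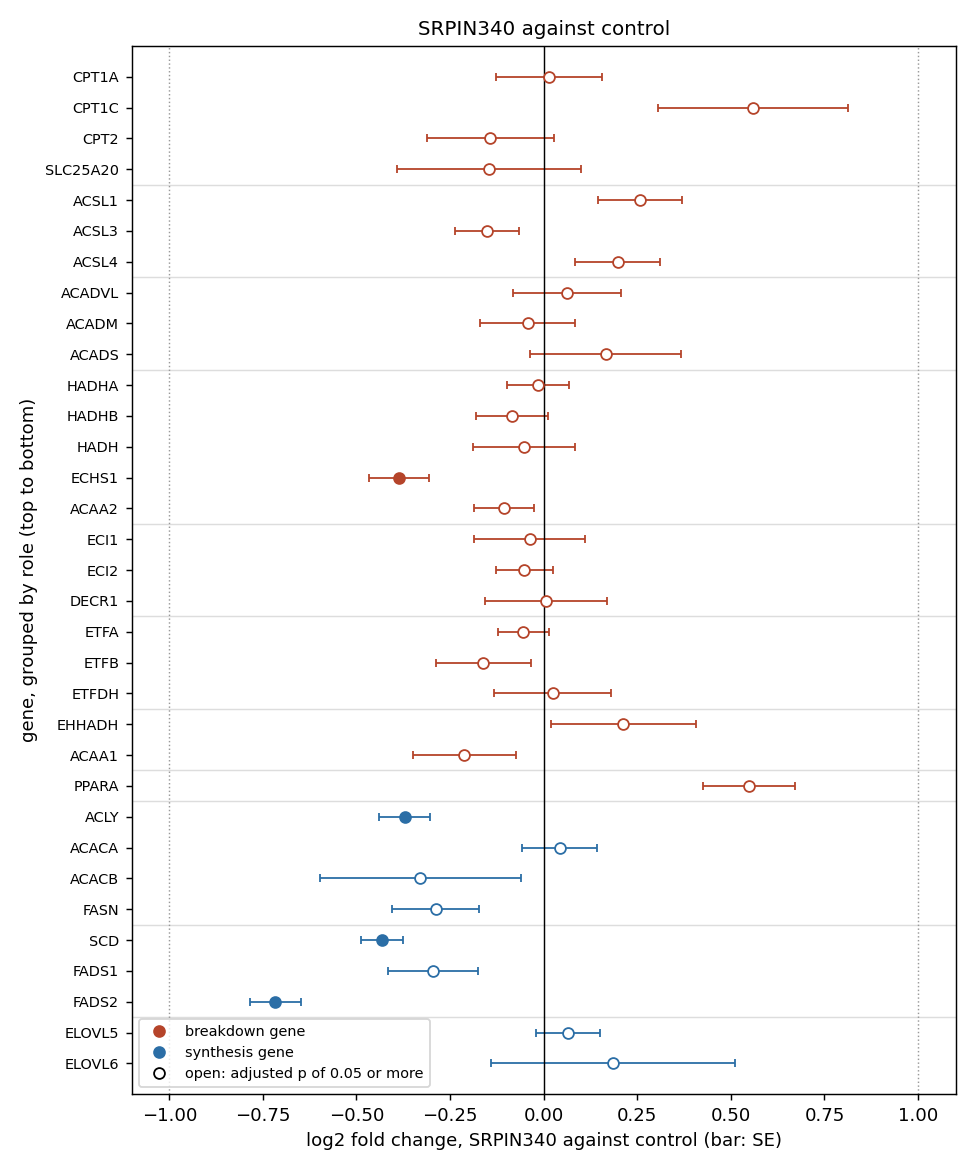
Log2 fold change with SRPIN340 against control (x axis) for 24 breakdown genes and 9 synthesis genes (y axis), with 1 SE as bars and open points for genes that did not pass the adjusted p limit of 0.05. The filled points are ECHS1, ACLY, SCD and FADS2, all negative, with FADS2 at -0.72 the lowest.

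The promoter windows of ACLY and SCD are shown because these genes fell with SRPIN340 and each holds 2 CCAAT boxes, the motif of the factor NF-Y. FADS2, which also fell and holds the motif, is not shown. In acidosis, with the TMM scaling, ACLY fell and SCD rose. A link of the motif to these changes was not tested. Capitals mark CCAAT on either strand, which reads ATTGG on the shown strand where it lies on the other. The ACLY window is chr17:41918902-41919201 (minus strand) and the SCD window chr10:100346983-100347282 (plus strand), both RefSeq, GRCh38.p14.
ACLY: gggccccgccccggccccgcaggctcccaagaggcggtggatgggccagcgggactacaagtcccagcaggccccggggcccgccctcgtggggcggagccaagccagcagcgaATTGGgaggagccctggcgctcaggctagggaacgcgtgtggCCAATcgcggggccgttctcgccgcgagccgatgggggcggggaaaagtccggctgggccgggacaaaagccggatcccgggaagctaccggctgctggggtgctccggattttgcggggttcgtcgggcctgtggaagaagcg
SCD: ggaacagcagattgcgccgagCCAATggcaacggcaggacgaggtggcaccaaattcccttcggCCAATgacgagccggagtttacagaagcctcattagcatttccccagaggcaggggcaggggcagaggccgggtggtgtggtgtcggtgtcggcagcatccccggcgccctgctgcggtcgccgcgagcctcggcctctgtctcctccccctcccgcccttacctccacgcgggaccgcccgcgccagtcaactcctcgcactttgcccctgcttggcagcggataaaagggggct

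Such windows exist here for 28 of the 33 genes. They were searched on both strands for 7 motifs. CCAAT was in 4 of 8 synthesis windows (50%) and 6 of 20 breakdown windows (30%), against 36.6% of the windows of all tested genes. The synthesis windows were those of ACLY, SCD, FADS2 and ELOVL5, and the breakdown windows those of ACSL3, CPT1C, ETFA, ETFB, HADH and PPARA. Of these genes only ACLY, SCD and FADS2 passed with SRPIN340, and the window of ECHS1, which also passed, held no CCAAT. The GC box (GGGCGG) was in 6 of 8 synthesis and 18 of 20 breakdown windows, against 72.1%. The cyclic AMP element was in the synthesis windows of ELOVL5 and FADS1, in no breakdown window and in 3.26% of those of tested genes. The E-box (CACGTG) was in the ELOVL5 window, against 9.84%, and the AP-1 element (TGACTCA) in the ACADVL window, against 2.99%. The sterol regulatory element and the PPAR element, a direct repeat of its half-site with 1 base between, were in none of the 28 windows and in 1.07% and 0.0254% of those of tested genes. None of these differences was tested. A window without these letters says nothing of the factor.

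Acidosis and SRPIN340 were also compared directly. The control libraries do not enter this difference of means, but they share its scaling and its estimate of the spread. Of the 24 breakdown genes, 6 were lower in acidosis beyond the fold limit and none higher, and of the synthesis genes FASN was higher and none lower, while 19.7% of all tested genes were lower and 14.9% higher. The count of 6 stood close to that of genes in general. At the adjusted p limit alone, 17 of the 24 were lower and 4 higher, beside 5202 and 4882 of the 14863 tested genes. The genes lower in acidosis were CPT2 (log2 fold change -2.87, SE 0.178, adjusted p = 5.90e-07), EHHADH (-2.84), ACADM (-1.60), ACSL1 (-1.52), CPT1A (-1.49) and CPT1C. For CPT1C, at 7.003 and 7.10 CPM with SRPIN340 and 4.04, 2.48 and 3.01 CPM in acidosis, the groups did not overlap (log2 fold change -1.13, SE 0.242, adjusted p = 0.00220). FASN was 2.49-fold higher in acidosis than with SRPIN340 (log2 fold change 1.32, SE 0.111, adjusted p = 4.37e-06).

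Further genes of the same pathways, also listed with earlier results of these data known, gave the wider picture in acidosis. Of 46 other breakdown genes (carriers, mitochondrial and peroxisomal enzymes and regulators), 45 were tested, 23 fell and 8 rose, beside 34.2% and 32.5% of all tested genes, with a median log2 fold change of -0.54. SLC27A2, a very-long-chain synthetase and transporter (19.9 and 19.1 CPM in control, 3.21, 3.40 and 2.84 CPM in acidosis), had a log2 fold change of -2.63 (adjusted p = 1.40e-06). AMACR, the racemase for branched chains, had -2.35 (adjusted p = 6.82e-07), and ABCD3, a peroxisomal importer, had -2.33 (adjusted p = 7.32e-08). The readthrough gene C1QTNF3-AMACR shares 64.8% of the AMACR transcript, so its value is uncertain. Exons of ATP8B4 on the other strand overlap 23.4% of the SLC27A2 transcript. PPARG was listed here with the regulators, although it is the receptor of fat storage, so its rise is no sign of more breakdown. It rose from 23.6 and 21.8 CPM in control to 66.3, 64.0 and 70.1 CPM in acidosis (log2 fold change 1.56, SE 0.101, adjusted p = 7.98e-07). CPT1B, the muscle isoform, rose (log2 fold change 1.17, SE 0.271, adjusted p = 0.00364), but 98.1% of its transcript is shared with the readthrough gene CHKB-CPT1B and its value is uncertain too.

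Of 38 other synthesis genes, 36 were tested, 12 fell and 10 rose, with a median log2 fold change of 0.02. These counts stood close to the 34.2% and 32.5% of all tested genes. The list holds regulators as well as enzymes, and some of them, such as INSIG1 and PRKAA2, restrain synthesis. The counts therefore give no direction of the pathway. IDH1, a cytosolic source of NADPH, stood at 119 and 111 CPM in control and 12.5, 15.3 and 13.2 CPM in acidosis, a decrease without overlap (log2 fold change -3.08, SE 0.102, adjusted p = 1.65e-08). CBR4, a reductase of mitochondrial fatty acid synthesis, fell (log2 fold change -2.23, SE 0.195, adjusted p = 5.71e-06), and so did PRKAA2, a catalytic subunit of the AMP-activated kinase that inhibits acetyl-CoA carboxylase (log2 fold change -1.06, SE 0.129, adjusted p = 5.37e-05). INSIG1, the retainer of the sterol-sensing SREBP complex, stood at 474 and 508 CPM in control and 1154, 1227 and 1312 CPM in acidosis and rose (log2 fold change 1.33, SE 0.0692, adjusted p = 2.10e-07). CYB5R3, which feeds electrons to the desaturases, rose as well (log2 fold change 1.22, SE 0.0822, adjusted p = 1.00e-06). An unnamed gene model on the same strand shares 22.3% of the CYB5R3 transcript. With SRPIN340 none of these 36 passed, and of the 45 other breakdown genes 1 did, PHYH, the first enzyme of phytanic acid breakdown, which was named after its value was seen (log2 fold change 0.60, SE 0.127, adjusted p = 0.0470).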

How the data were processed

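Deposited values are estimated counts per gene, neither normalized nor all whole, which per the labels and methods the authors made by trimming reads (Trimmomatic 0.39, Trim Galore 0.6.6), quantifying GENCODE transcripts with Salmon 1.5.1 and summing to genes with tximport. The option of tximport and the use of strand are not given in the sources used here, and genes that share exons can exchange reads. The processing notes also name DESeq2. Of 19978 identifiers, 19977 matched GENCODE 44 (GRCh38), which gave symbols, coordinates and lengths.

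Estimated counts were rounded and analysed by the quasi-likelihood test of edgeR 4.0.16 (R 4.3.3, TMM, filterByExpr), all 7 samples in one fit with group as the only term. A gene passed when its adjusted p (Benjamini-Hochberg, all tested genes) was below 0.05, and was called beyond a log2 fold change of 1 in size. Standard errors were taken from the test statistic. Levels per kilobase use the canonical transcript. The list means use log2 CPM with a prior count of 2. Numbering of replicates follows the repeat number in the labels, and the methods call the repeats biological. Library totals of 13615816 to 24110460 set the counting precision.

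Named were all members by fold change, with library values for those called in any comparison, those with the largest and smallest change in each role and the 3 with the smallest p with SRPIN340, and the 3 highest and 3 lowest called genes of each further list with a mean of at least 5 CPM. Members and lists were chosen with earlier results of these data known. Some marker genes are not reported here by name. Alternatives were DESeq2 1.42.0, RLE and total-count scaling, other filters, samples in the fit, a replicate block, a fold limit of 0.5, leaving out each sample, and for the balance other summaries, members and prior counts.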

Additional observations from a re-analysis of the deposited data

How the results depend on the processing

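Of the 86 fold changes of single genes reported, 64 kept their side of the adjusted p limit in every alternative, with no passing value reversed. Among them was each of the 7 values given against SRPIN340 beyond the fold limit. The values among the 64 for SRPIN340 against control passed in no setting. ECHS1, ACLY, SCD and FADS2, which passed in that comparison, were not among the 64. Scaling by the total count alone reversed 8 values in acidosis against control: ACSL4 (-0.117), HADHA (-0.368), ETFA (-0.438), ETFB (-0.486), PPARA (-0.363), ACACA (-0.116), SCD (-0.25) and ELOVL5 (-0.055). By its construction that scaling lowers every value in acidosis, and over all genes it gave 815 called higher and 5202 lower in place of 2145 and 2840.

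In acidosis against control, scaling by the total count alone gave 16 breakdown genes called lower and 0 higher, 1 that passed higher, 4 synthesis genes called lower and 0 higher, and 1 that passed higher. A fold limit of 0.5 gave 15 breakdown genes called lower, and 3 synthesis genes lower and 2 higher. Without a filter on low counts, and with only the 2 groups compared, 0 breakdown genes were called higher, and with only those groups 2 synthesis genes passed lower. Leaving out 1 sample gave 0 to 1 breakdown genes called higher, 1 to 4 that passed higher, 0 to 1 synthesis genes called lower, 0 to 1 called higher and 2 to 3 that passed lower. The calls of ACADVL and FASN as higher were each lost without control replicate 1 and without acidosis replicate 1. Leaving out any library except acidosis replicate 1 removed the pass of ACACB, and any except acidosis replicate 2 that of ELOVL6.

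In SRPIN340 against control, 0 breakdown genes passed lower with scaling by the total count alone, and 1 passed higher with DESeq2, that scaling, no filter, a mean of at least 6 CPM or only the 2 groups compared. A fold limit of 0.5 gave 1 synthesis gene called lower. Leaving out 1 sample gave 0 to 1 breakdown genes that passed lower, 0 to 1 that passed higher and 0 to 3 synthesis genes that passed lower. Over all tested genes, 114 passed higher and 228 lower, and with DESeq2 319 and 563. With only the 2 groups compared they were 236 and 368, and with a replicate block 13 and 38. Leaving out 1 sample gave 4 to 207 higher and 10 to 319 lower, with 19 and 47 without control replicate 1, 10 and 57 without control replicate 2, 4 and 10 without SRPIN340 replicate 1, 7 and 22 without SRPIN340 replicate 2 and 75 and 148 without acidosis replicate 3.

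In acidosis against SRPIN340, scaling by the total count alone gave 15 breakdown genes called lower and 1 that passed higher, 2 synthesis genes called lower, 0 called higher, 5 that passed lower and 2 that passed higher. A fold limit of 0.5 gave 14 breakdown genes lower and 1 higher, and 1 synthesis gene lower and 2 higher. Without a filter 1 breakdown gene passed higher, and with DESeq2 1 synthesis gene passed lower. Leaving out 1 sample gave 0 to 1 breakdown genes called higher, 1 to 4 that passed higher, 0 to 1 synthesis genes called lower and 1 to 2 that passed lower.

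With a replicate block 0 breakdown genes and 1 synthesis gene passed lower with SRPIN340, and 1 breakdown gene passed higher in acidosis against SRPIN340. Deviations of libraries with the same number correlated between -0.115 and 0.063. With so few libraries in a group, these values cannot decide whether the numbers pair the samples.

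The balance in acidosis minus control was -0.952 with the median over members, -0.495 with summed CPM, -0.678 without ACSL1, ACSL3, ACSL4 and PPARA, -0.688 without desaturases and elongases and -0.733 without CPT1C, ACACB, PPARA and members under 5 CPM. For SRPIN340 minus control it was 0.215 and 0.194 without the first and last of these sets. For acidosis minus SRPIN340 it was -1.193 with the median, -0.772 with summed CPM, -0.94 without desaturases and elongases and -0.927 without the last set. Leaving out 1 sample gave -0.661 to -0.556, 0.201 to 0.306 and -0.87 to -0.854 in these comparisons. The causes of these differences were not tested. Groups of 2 and 3 samples and the lower depth of 2 acidosis libraries limit the precision.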

Other observations

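Of 13 tested genes of triglyceride assembly and lipid droplets, 6 fell and 4 rose in acidosis, beside 34.2% and 32.5% of all tested genes, with a median log2 fold change of -0.16. Of the 7 triglyceride assembly genes among them, 3 fell and 2 rose. The lowest log2 fold change of the 7 was -1.81, in a gene that the rule for naming left out, so the 2 named below do not stand for the group. LPIN1, the phosphatidate phosphatase, stood at 56.3 and 42.8 CPM in control and 138, 108 and 119 CPM in acidosis (log2 fold change 1.30, SE 0.145, adjusted p = 3.08e-05, edgeR quasi-likelihood test). AGPAT1, which acylates lysophosphatidate, stood at 143 and 152 CPM in control and 307, 281 and 322 CPM in acidosis (log2 fold change 1.04, SE 0.0806, adjusted p = 2.44e-06), and 47.4% of its transcript overlaps the readthrough gene PPT2-EGFL8 on the other strand. PLIN2, a coat protein of lipid droplets, stood at 17.2 and 16.4 CPM in control and 4.63, 6.79 and 3.87 CPM in acidosis (log2 fold change -1.73, SE 0.207, adjusted p = 4.86e-05). In each of these genes the acidosis libraries did not overlap the controls. With SRPIN340 none of the 13 passed.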
